A study of Rattus norvegicus with 28 samples.

Results

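Complement genes of the rat hippocampus were followed here through a traumatic brain injury and through early treatment with 3 antidepressants. The set held 9 genes: C1qa, C1qb and C1qc, which encode the chains of the recognition molecule C1q; C1r and C1s, its proteases; Serping1, the inhibitor of those proteases; C3 and Cfb; and C3ar1, the receptor of the C3a fragment. They were chosen by name, with earlier results of these data known, as the probes whose RefSeq accession belongs to one of these 9 rat genes. Each gene had 1 probe among the 30367 gene probes of the array, and all 9 were among the 17322 probes bright enough to be tested.

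Messenger RNA was measured in the whole hippocampus of adult male Sprague-Dawley rats, 1 Agilent array per sample, 24 h after surgery. Sham rats (2 arrays) had the surgery without the injury, and TBI rats (3 arrays) received a fluid-percussion traumatic brain injury. TBI+Imipramine, TBI+Prozac and TBI+Zoloft rats (3 arrays each) had the same injury and an injection of that drug 1 h afterwards. Imipramine is a tricyclic antidepressant, while Prozac (fluoxetine) and Zoloft (sertraline) are selective serotonin reuptake inhibitors. The study's methods name vehicle for rats that were given no drug, which the labels do not mention, and no array of drug-treated Sham rats was analysed here. Whole hippocampus mixes neurons, glia, vessels and blood-borne cells, so that more cells of a type and more RNA per cell cannot be told apart in any value below.

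Complement is a set of proteins that tag and remove cells, debris and synapses. In the classical pathway C1q recognises a target and activates C1r and then C1s, which leads to cleavage of C3, and Serping1 stops C1r and C1s. Factor B, the product of Cfb, joins with C3b to form the C3-cleaving enzyme of the alternative pathway, and C3a released from C3 acts on C3ar1. In the brain, C1q is known mainly as a product of microglia, C3 is made by reactive astrocytes and myeloid cells, and C3ar1 is carried mainly by microglia and macrophages.

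RefSeq promoter sequences (assembly GRCr8) were at hand for 5 of the 9 genes. Shown here are the 250 bases before the start site of C3 and C1r, which were called higher in every injured group, and of C1qa, which was called in none, each 5′ to 3′ on the gene's strand. Capitals mark the motif found.
C3, chr9:2201340-2201589, minus strand: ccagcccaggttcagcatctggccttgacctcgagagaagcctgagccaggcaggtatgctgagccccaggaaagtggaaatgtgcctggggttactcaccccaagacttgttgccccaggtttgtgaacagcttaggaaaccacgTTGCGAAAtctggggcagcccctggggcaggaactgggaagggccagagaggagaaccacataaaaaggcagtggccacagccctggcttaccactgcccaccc
C1r, chr4:159098763-159099012, plus strand: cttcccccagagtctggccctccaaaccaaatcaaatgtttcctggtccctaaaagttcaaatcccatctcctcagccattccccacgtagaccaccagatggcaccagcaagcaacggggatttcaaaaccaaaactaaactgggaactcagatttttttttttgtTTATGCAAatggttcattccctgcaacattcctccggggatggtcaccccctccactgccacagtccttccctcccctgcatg
C1qa, chr5:154419934-154420183, minus strand: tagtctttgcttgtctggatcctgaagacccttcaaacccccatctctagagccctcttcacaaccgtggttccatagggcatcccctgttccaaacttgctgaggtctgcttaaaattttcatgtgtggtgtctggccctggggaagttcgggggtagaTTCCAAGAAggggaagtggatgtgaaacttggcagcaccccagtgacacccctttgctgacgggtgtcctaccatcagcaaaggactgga
The C3 window held the C/EBP letters TTGCNNAA, as TTGCGAAA starting at position -104 from the start site. The C1r window held the same letters in reverse, as TTATGCAA at position -83. The C1qa window held the STAT letters TTCNNNGAA, as TTCCAAGAA at position -90, and that of C1qb, on chr5:154407828-154408077, held the NF-kB letters GGGANTTCC in reverse at position -245. None of the 5 motifs searched on both strands, which also included the interferon-response letters GAAANNGAA and the PU.1 letters GAGGAAG, was found in the C3ar1 window on chr4:157756531-157756780, and no 2 matches overlapped. Among 33469 rat promoter windows of this length, 9.22% held the C/EBP letters, 7.67% the STAT letters, 1.43% the NF-kB letters, 8.12% the interferon-response letters and 10.2% the PU.1 letters. In the same assembly C1qa, C1qc and C1qb lie next to each other on chromosome 5, and C1r and C1s next to each other on chromosome 4, with 0 annotated genes between neighbours.

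Levels are given as log2 of the probe's processed signal relative to the 75th percentile of the array's detected probes, and a level is compared only within a gene. Between 14676 and 18196 of the probes were above background on an array, and 0 were saturated. Neuronal and astrocyte markers were measured in all groups, with 8 of 10 listed neuronal genes (all but Rbfox3 and Prox1) and 8 of 8 listed astrocyte genes tested. The summed signal of 4 tested choroid plexus markers, with Kl, Kcnj13, Otx2 and Slc4a5 too dim, ran from 1.12 to 112 times the scaling percentile over the arrays and overlapped between all groups. Both Sham arrays lay on a slide of their own, scanned on another day than the others, so that slide and injury cannot be told apart in any comparison with Sham. The TBI arrays shared a slide with TBI+Prozac replicate 1, and the other 8 drug arrays shared the remaining one.

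Injury was accompanied by higher signal of nearly the whole set. TBI arrays had higher levels than Sham arrays in 8 of the 9 genes (limma, adjusted p under 0.05 over all probes), against 8.30% of all tested probes called higher. The genes were chosen with earlier results known, so that this count describes them and does not test the set. Among the 8, C3ar1 passed the brightness filter only through injured groups. The C1 proteases and their inhibitor, C3 and Cfb rose by between 3.38-fold and 6.45-fold, C3ar1 rose from a Sham level that was not well above background, and C1qb and C1qc rose by 0.72 and 1.22 on the log2 scale. C1qa was the gene without a call. The median difference of the 9 genes was 1.76, while that of all tested probes was 0.0015. All 3 TBI arrays lay above both Sham arrays in 8 of the 9 genes, as they did for 20.9% of all probes. With the drug groups added, all 12 injured arrays lay above both Sham arrays in the same 8 genes, against 12.1% of all probes.

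**Figure D1:**
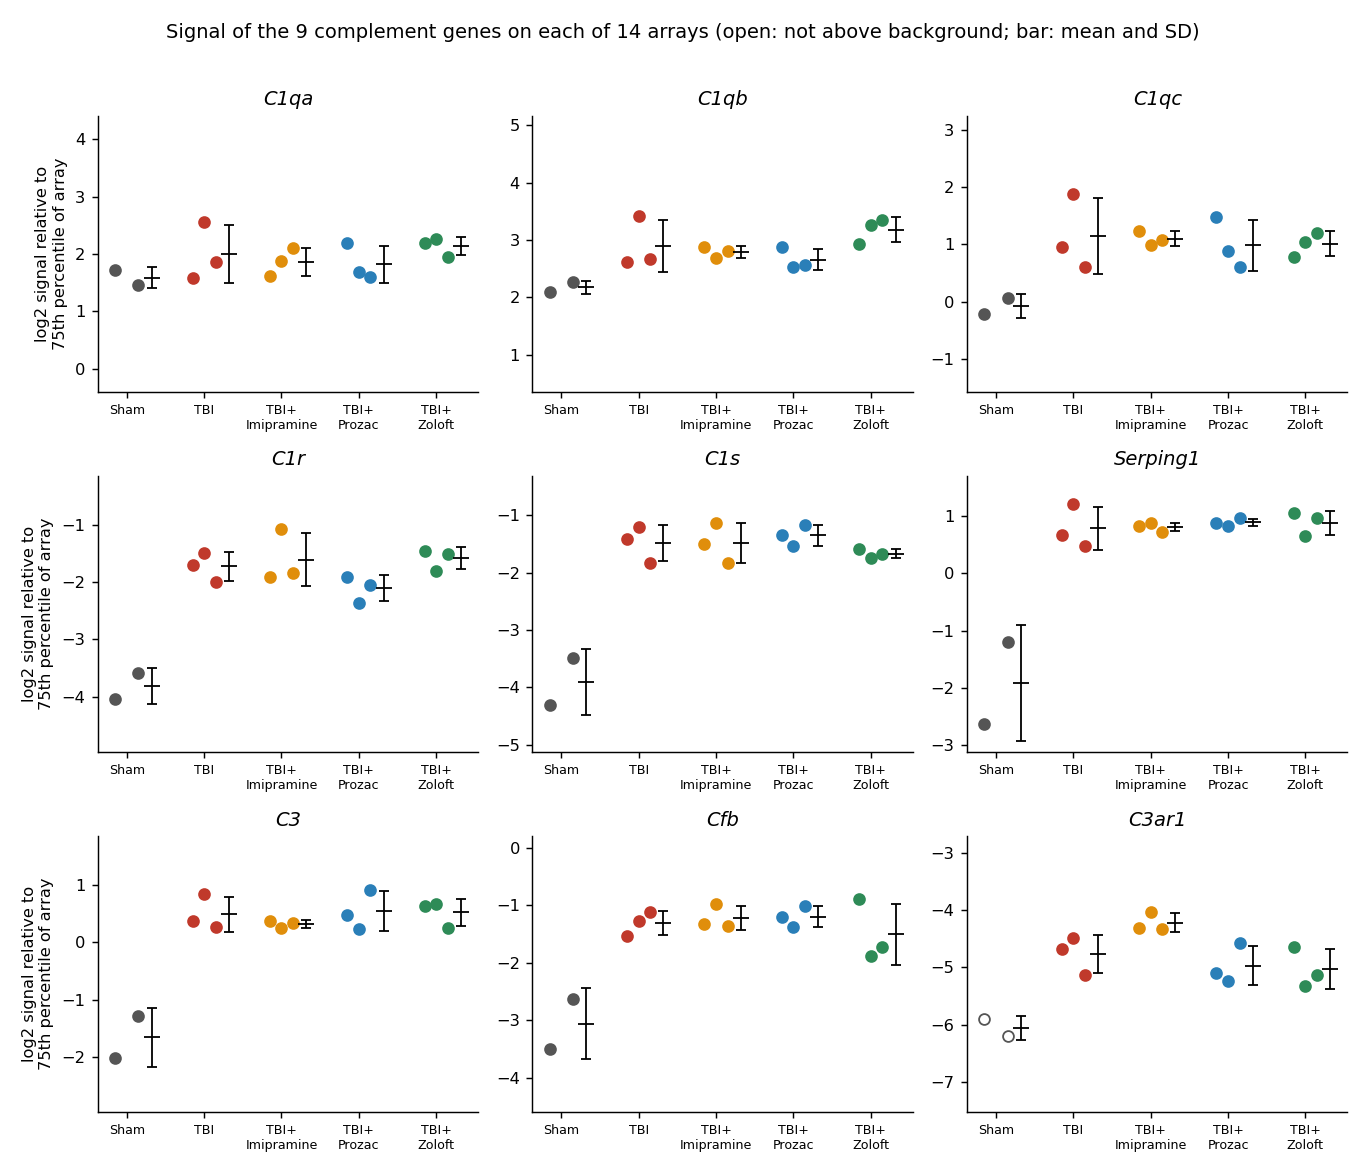
Level of each of the 9 complement genes on every array, as log2 signal relative to the array's 75th percentile, with 1 point per array, a bar at the group mean, and the 2 Sham and 12 injured arrays grouped by treatment. In 8 genes every injured point lies above both Sham points, and in C1qa 8 of 12 do.

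Serping1, which encodes the C1 inhibitor, had the largest difference of the set between TBI and Sham. Its level was -2.63 and -1.20 on the Sham arrays and 0.66, 1.205 and 0.47 on the TBI arrays. The drug groups fell in the same range as TBI, at 0.82, 0.87 and 0.72 with imipramine, 0.87, 0.83 and 0.95 with Prozac, and 1.04, 0.65 and 0.96 with Zoloft. The Sham arrays differed from each other by more than any 2 injured arrays did, yet no injured array came near either of them. TBI exceeded Sham by 2.69 (SE 0.33, a 6.45-fold difference, limma adjusted p = 0.000374).

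C1s and C1r, the proteases that Serping1 blocks, rose by similar amounts. C1s was at -4.31 and -3.50 on the Sham arrays and at -1.41, -1.21 and -1.83 on the TBI arrays, a difference of 2.42 (SE 0.26, 5.35-fold, limma adjusted p = 0.000203). In the 9 drug-treated rats C1s lay between -1.83 and -1.13, again far above Sham and within or close to the TBI range. C1r averaged -3.82 ± 0.32 (SD, n = 2) in Sham and -1.73 ± 0.25 (SD, n = 3) in TBI, a difference of 2.09 (SE 0.26, 4.25-fold, limma adjusted p = 0.000446). The C1r probe was printed in 10 spots on each array and the probes of the other genes in 2, so that its level averages more spots.

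C3, the protein on which all complement pathways converge, was at -2.02 and -1.29 on the Sham arrays. It reached 0.36, 0.83 and 0.26 on the TBI arrays, 0.38, 0.25 and 0.33 with imipramine, 0.48, 0.23 and 0.91 with Prozac, and 0.63, 0.67 and 0.25 with Zoloft. The 4 injured groups overlapped one another, and none of them overlapped with Sham. The TBI difference was 2.14 (SE 0.25, 4.42-fold, limma adjusted p = 0.000342). Cfb, its alternative-pathway partner, averaged -3.06 ± 0.62 (SD, n = 2) in Sham and -1.31 ± 0.21 (SD, n = 3) in TBI, which is a difference of 1.76 (SE 0.30, 3.38-fold, limma adjusted p = 0.00261).

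The C1q chains changed least. C1qb was at 2.10 and 2.26 on the Sham arrays and at 2.61, 3.43 and 2.67 on the TBI arrays, a difference of 0.72 (SE 0.23, limma adjusted p = 0.0477). C1qc averaged -0.07 ± 0.21 (SD, n = 2) in Sham and 1.15 ± 0.66 (SD, n = 3) in TBI, a difference of 1.22 (SE 0.33, limma adjusted p = 0.0250). TBI replicate 2 was the highest TBI array for all 3 chains. C1qa was at 1.71 and 1.45 on the Sham arrays and at 1.57, 2.55 and 1.86 on the TBI arrays, so that the groups overlapped and the difference of 0.41 (SE 0.27, limma adjusted p = 0.329) did not pass. The 95% interval of that difference ran from -0.173 to 0.998. The calls of the chains were the least stable: that of C1qb was lost in 15 of 27 alternative analyses and that of C1qc in 7.

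C3ar1, the C3a receptor, was not well above background on either Sham array and was above it on all 12 injured arrays. Its measured levels were -5.90 and -6.20 on the Sham arrays and -4.69, -4.49 and -5.14 on the TBI arrays. On this scale TBI was at least 2.43-fold higher than Sham (limma adjusted p = 0.00582). This bound sets the TBI mean against the higher, on each Sham array, of the probe's own signal and the lowest signal among probes well above background. The probe's own signal was the higher on both Sham arrays, so that the bound equals the measured difference, whose 95% interval starts at 1.65-fold. After a different background correction (normexp) the difference shrank to 0.29 and was no longer called.

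**Figure D2:**
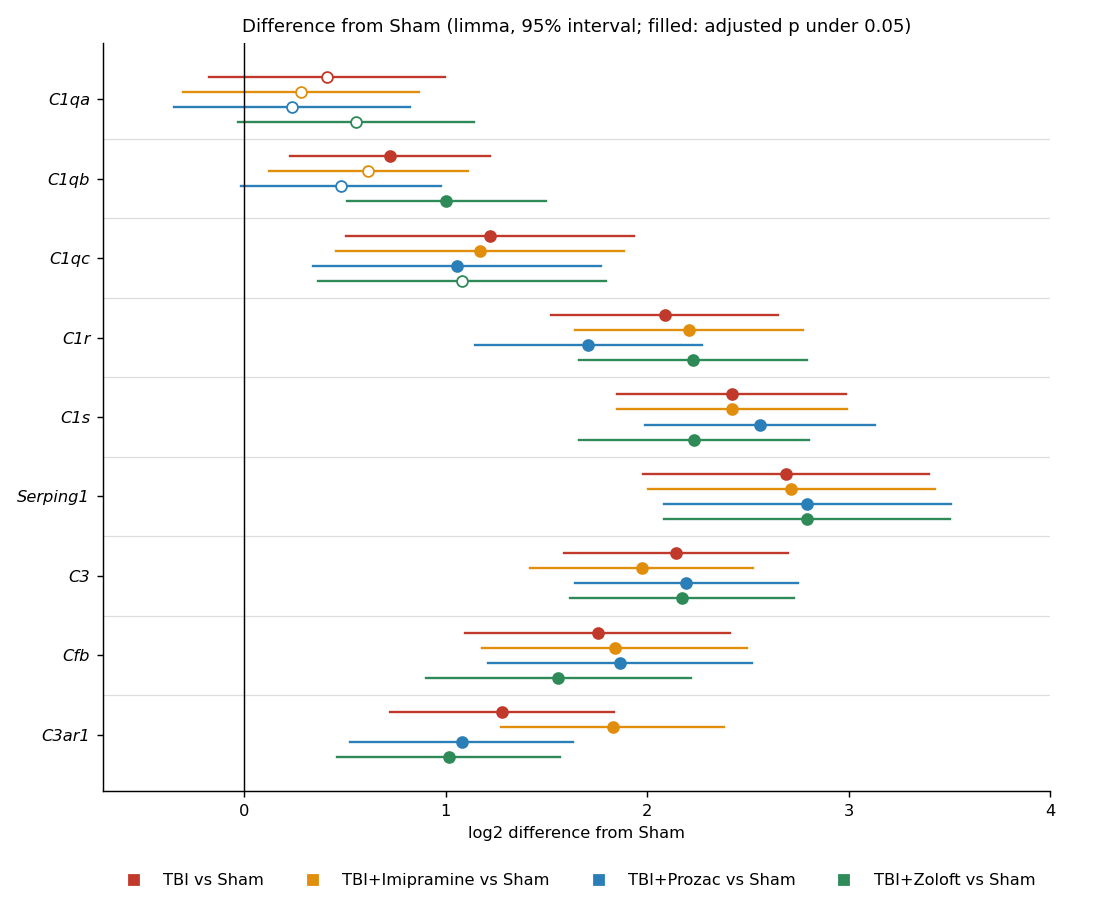
Differences of the 4 injured groups from Sham for each of the 9 genes, on the log2 scale with 95% limma intervals, filled where the adjusted p was under 0.05 and open otherwise. The C1 proteases, Serping1, C3 and Cfb lie between 1.56 and 2.79 in all groups, whereas the C1q chains lie between 0.24 and 1.22.

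Leaving out Sham replicate 2 left 5 of the 9 calls between TBI and Sham, those of C1s, C1r, C3, Cfb and Serping1. By the methods' t-test on the same values, 6 of the 9 passed without adjustment and 0 after Benjamini-Hochberg adjustment over all probes.

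Some cell type markers also differed between TBI and Sham, where 8.30% of all tested probes were called higher and 8.32% lower. Of 6 tested markers of infiltrating myeloid cells 4 were higher in TBI than in Sham (Ly6c, Lyz2, S100a8 and S100a9), with a median difference of 2.41. Ly6c and Cd163 were not well above background on either Sham array and passed the brightness filter only through injured groups. Their differences from Sham therefore rest on dim Sham values. The summed signal of the 5 markers measured on every array ran from 0.0976 to 0.102 times the scaling percentile in Sham and from 0.465 to 2.77 in TBI, while Ccr2, Mpo, Mrc1 and Mmp8 were not bright enough to be tested. Of 9 tested microglial markers 1 was higher (Tyrobp), with a median difference of 0.20 and sums of 9.47 to 9.69 in Sham and 13.1 to 14.1 in TBI. Of 8 astrocyte markers 2 were higher (Gfap and Vim), although their sums overlapped, at 44.3 on both Sham arrays and from 30.7 to 50.1 in TBI. Of 6 endothelial markers 1 was higher (Cldn5), of 8 neuronal markers 1 was lower (Syt1), and 0 of the 4 choroid plexus, 6 blood and 8 leptomeningeal markers were called. In lists this short, 1 call is close to the shares of all probes. The part of these cell types in the complement differences was not tested.

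The drug-treated injured groups also had higher complement signal than Sham. With imipramine 7 of the 9 genes were called higher, against 19.8% of all tested probes, with Prozac 7 of 9 against 11.7%, and with Zoloft 7 of 9 against 4.16%. C1s, C1r, C3, Cfb, Serping1 and C3ar1 rose in all 4 injured groups. C1qc also rose with imipramine (1.17, limma adjusted p = 0.0230) and with Prozac (1.06, limma adjusted p = 0.0491), while C1qb also rose with Zoloft (1.005, limma adjusted p = 0.0239). The median difference of the 9 genes was 1.84 with imipramine, 1.71 with Prozac and 1.56 with Zoloft, beside 0.18, 0.14 and 0.0025 for all probes. These comparisons and that of TBI use the same 2 Sham arrays. With Zoloft, 4 calls remained without Sham replicate 1 (C1s, C1r, C3 and Serping1). The call of C1qc with Prozac was lost in 19 of 27 alternative analyses and that of C3ar1 with Zoloft in 13 of 26.

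The question of the drug arms was whether early treatment altered the response to injury. For the complement genes no difference from untreated TBI was called. The counts were 0 of 9 with imipramine, against 2.85% of all tested probes, 0 of 9 with Prozac, against 0.00577%, and 0 of 9 with Zoloft, against 1.38% (limma, adjusted p under 0.05). Without adjustment 1 gene passed 0.05 with imipramine, which was C3ar1, and 0 with Prozac and 0 with Zoloft. The methods' t-test also called 0 of 9 after Benjamini-Hochberg adjustment. Of all 17322 probes, however, it called only 27 with imipramine, 1 with Prozac and 0 with Zoloft. Between TBI and Sham it called 0 of all probes too, so that its 0 of 9 says little about the drugs.

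If slides did not differ, the size of a drug effect that these arrays leave possible can be read from the intervals. Over the 9 genes and 3 drugs the 95% intervals reached from -0.88, for C1r with Prozac, to 1.04, for C3ar1 with imipramine. For Serping1 the intervals ran from -0.61 to 0.66 with imipramine, from -0.53 to 0.74 with Prozac and from -0.53 to 0.74 with Zoloft, beside an injury difference of 2.69. For C3 they ran from -0.67 to 0.33, from -0.44 to 0.55 and from -0.46 to 0.53, beside an injury difference of 2.14. The intervals of these 2 genes include 0, and none of them reaches a fall as large as the injury difference of its gene. The imipramine and Zoloft arrays shared no slide with the TBI arrays, so that slide and drug can be separated only through TBI+Prozac replicate 1. The fit behind these intervals left slide out, so that they do not cover a difference between slides.

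**Figure D3:**
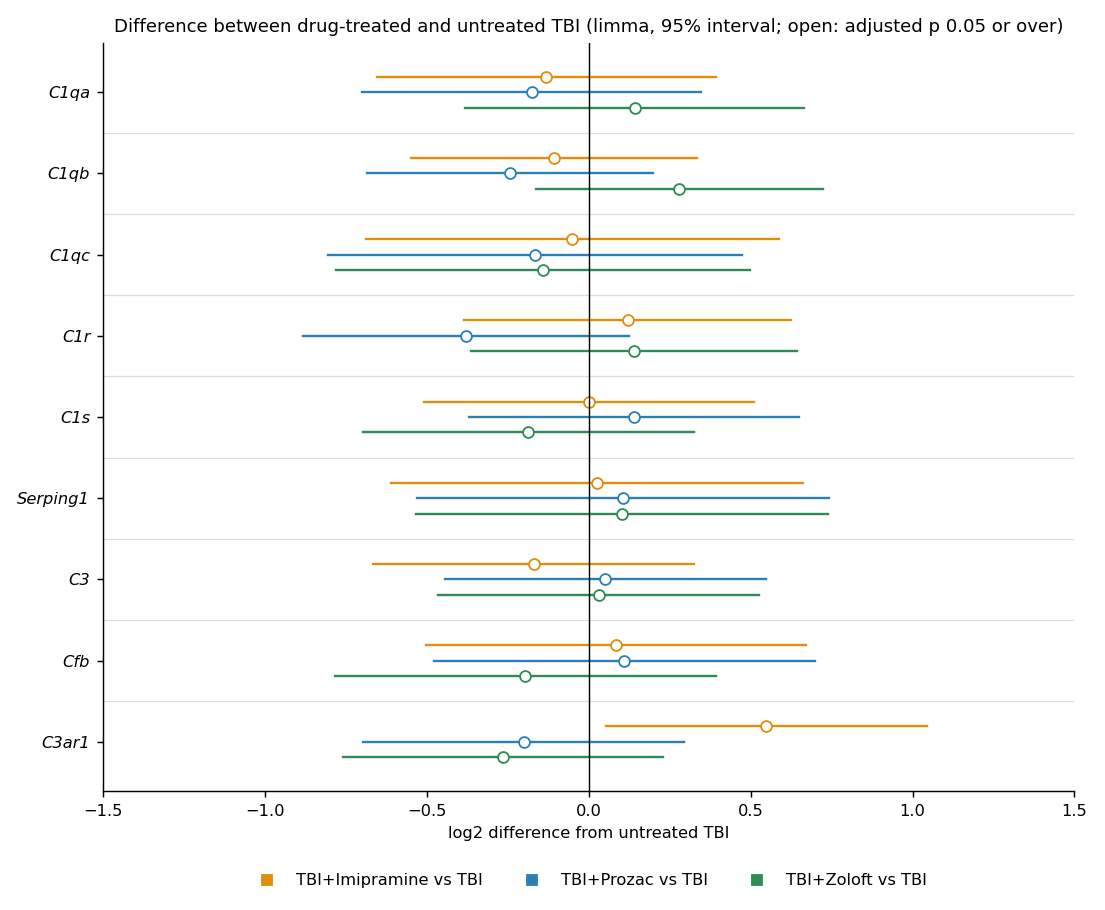
Differences of the 3 drug groups from untreated TBI for each of the 9 genes, on the log2 scale with 95% limma intervals, drawn open because no adjusted p was under 0.05. All intervals but that of C3ar1 with imipramine, from 0.05 to 1.04, include 0.

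C3ar1 was the gene that separated the drug groups most. Its level was -4.31, -4.03 and -4.33 with imipramine, -5.10, -5.23 and -4.58 with Prozac, and -4.65, -5.33 and -5.13 with Zoloft. All 3 imipramine arrays lay above all arrays of TBI, of TBI+Prozac and of TBI+Zoloft, which held for 25.2%, 11.3% and 26.6% of all probes. Imipramine exceeded TBI by 0.55 (SE 0.23, 95% interval 0.05 to 1.04, limma adjusted p = 0.213), and by 0.35 relative to the shift of 0.20 in the median of all probes. With slide as a block the difference was 0.35 (SE 0.43, limma adjusted p = 0.885).

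The 3 drugs were compared with each other at 1 time, 24 h after injury, in 3 pairs. For imipramine against Zoloft, imipramine against Prozac and Prozac against Zoloft 0 of 9 genes were called, against 5.29%, 0.00577% and 3.69% of all tested probes. A test of any difference among the drugs (limma F) also called 0 of 9, against 3.18% of all probes. Without adjustment 1, 1 and 2 of the 9 genes passed 0.05 in the 3 pairs. C3ar1 was higher by 0.81 with imipramine than with Zoloft (SE 0.23, 95% interval 0.32 to 1.31, limma adjusted p = 0.0569), and by 0.75 than with Prozac (SE 0.23, 95% interval 0.25 to 1.24, limma adjusted p = 0.720). The first of these was called when TBI+Zoloft replicate 1 was left out, but over 28 alternatives it ran from 0.26 to 1.01. The medians of all probes were themselves higher with imipramine, by 0.18 than with Zoloft and by 0.06 than with Prozac. C1qb and C1r each differed by -0.52 between Prozac and Zoloft (limma adjusted p = 0.163 and 0.222), with 95% intervals of -0.97 to -0.08 and of -1.02 to -0.02. For C3 and Serping1 the intervals over the 3 pairs lay within -0.72 and 0.64 and included 0.

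Myeloid signal was also read in the drug groups. Of the 6 tested infiltrating myeloid markers 0 were called in any pair of drugs or against untreated TBI. Of the 9 microglial markers 0 were called against untreated TBI. The shares of all tested probes called against TBI were 2.85% with imipramine, 0.00577% with Prozac and 1.38% with Zoloft. Between drugs 1 microglial marker was called, Csf1r, higher with imipramine and with Prozac than with Zoloft. Of all tested probes 5.29% and 3.69% were called in these pairs. The astrocyte marker Vim and the neuronal marker Neurod6 were called higher in the same pairs, and the endothelial marker Ly6e with Prozac. The summed signal of the 5 infiltrating myeloid markers ran from 1.59 to 2.91 times the scaling percentile with imipramine, from 0.549 to 1.27 with Prozac and from 1.35 to 2.39 with Zoloft. In untreated TBI it ran from 0.465 to 2.77. Microglial sums ran from 14.7 to 18.1 with imipramine, from 12.3 to 18.1 with Prozac and from 10.8 to 14.03 with Zoloft. Against Sham, 6 of 6 tested infiltrating myeloid markers and 4 of 9 microglial markers were higher with imipramine, 5 and 3 with Prozac, and 3 and 1 with Zoloft. The shares of all tested probes called higher fell in the same order, at 19.8%, 11.7% and 4.16%. Ly6c and Cd163, counted among the infiltrating myeloid markers, were not well above background on either Sham array. Differing counts against the same Sham arrays are not a test between drugs. The part of these markers in the C3ar1 values was not tested.

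The genes whose levels followed each complement gene most closely were read from 10204 named genes over the 14 arrays by Pearson correlation. Because Sham and injured arrays are included, these values describe the injury difference as well as the spread among injured rats. C1s and C3 had another of the 9 genes as closest partner. C1s followed Serping1 (r = 0.97, Spearman 0.69), and C3 followed Serping1 (r = 0.97, Spearman 0.56) and C1s (r = 0.96, Spearman 0.53). Serping1 itself was closest to Lcn2, which encodes the iron-carrier-binding lipocalin-2 (r = 0.99, Spearman 0.90). C1r was closest to Cp, which encodes ceruloplasmin (r = 0.97, Spearman 0.78), and Cfb to the transporter gene Abcc3 (r = 0.95, Spearman 0.78).

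C1qb was closest to the macrophage scavenger receptor gene Cd163 (r = 0.92, Spearman 0.89), which was also the second closest to C1qa (r = 0.81, Spearman 0.80) after Kank3 (r = 0.86, Spearman 0.85). C1qc was closest to Serpina3n, a serine protease inhibitor gene (r = 0.92, Spearman 0.87). C3ar1 was closest to Folr2, the folate receptor of macrophages (r = 0.97, Spearman 0.92), and then to the C-type lectin genes Clec4a3 and Clec4a1 (r = 0.96 for both).

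Whether the chains of C1q moved together was examined over the 12 injured rats alone, in 3 chain pairs and the C1r and C1s pair. The injured groups and their slides were pooled and permuted freely, so that differences between groups or slides enter r and its p. Among injured groups the means of C1qa and C1qb were lowest with Prozac (1.82 and 2.66) and highest with Zoloft (2.14 and 3.18). C1qa and C1qb correlated at r = 0.75 (permutation p = 0.00531, adjusted 0.0212 over 4 pairs) with a Spearman rho of 0.77 (permutation p = 0.00511, adjusted 0.0204). Without the 2 rats farthest from the C1qa median r was 0.51, and over the 8 arrays of 1 slide it was 0.62. C1qb and C1qc correlated at r = 0.68 (permutation p = 0.0142, adjusted 0.0285) and rho = 0.68 (permutation p = 0.0182, adjusted 0.0364), with r = 0.43 without the 2 farthest rats and 0.58 on the slide of 8. C1qa and C1qc had r = 0.61 (permutation p = 0.0313, adjusted 0.0417) and rho = 0.48 (permutation p = 0.118, adjusted 0.157), with r = 0.32 without the 2 farthest rats and 0.15 on the slide of 8. In all 3 chain pairs r was lower without these rats. C1r and C1s, neighbours on their chromosome and partners in 1 complex, had r = 0.30 (permutation p = 0.349, adjusted 0.349) and rho = 0.19 (permutation p = 0.559, adjusted 0.559) among injured rats. Without the 2 rats farthest from the C1r median their r was 0.00039, and on the slide of 8 it was 0.20.

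The rest of the pathway was described by a list of 42 other complement genes, of which 36 had a probe on the array and 23 were tested. In TBI against Sham 7 of 23 were higher (C2, C5ar1, Cd93, Cr1l, Fcnb, Itgam and Itgb2) and 1 was lower (C4bpb), with a median difference of 0.68 over the 23 genes, against 8.30% of all tested probes called higher and 8.32% called lower. With imipramine 11 were higher than Sham and 0 lower (median 1.13), against 19.8% higher among all probes, and with Prozac 9 and 0 (median 0.59), against 11.7%. With Zoloft 4 were higher and 1 lower (median 0.41), against 4.16% higher and 1.80% lower. The receptors C5ar1, Cd93, Itgam and Itgb2 rose in all 4 injured groups. Without Sham replicate 1, however, none of these receptors was called with Zoloft and of them only Itgam with Prozac, and the call of Itgb2 was lost in 11 of 27 alternative analyses in TBI and in 13 with Zoloft. None of the 7 listed terminal pathway genes, which encode the membrane attack complex, was bright enough to be tested, and 4 of them had a probe.

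Among receptors, C5ar1, which binds the C5a fragment, had the largest injury difference. It ranged from -4.58 to -4.04 on the 2 Sham arrays and from -2.42 to -1.90 on the 3 TBI arrays, a difference of 2.11 (SE 0.38, limma adjusted p = 0.00330). With imipramine it ranged from -1.84 to -0.81, above all TBI arrays, which held for 25.2% of all probes. The difference of imipramine from TBI was 1.02 and was not called, while that from Sham was 3.12 (SE 0.38, limma adjusted p = 0.000260). Itgam and Itgb2, which together encode complement receptor 3, rose by 1.05 and 0.79 in TBI, and Cd93, a receptor gene of endothelial and myeloid cells, rose by 1.32.

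Among initiation genes, C2, whose product is cleaved by C1s, rose by 1.14 in TBI (limma adjusted p = 0.0193), and a second probe of the gene gave 1.51 (limma adjusted p = 0.00537). Fcnb, a ficolin gene of myeloid cells, was not well above background on either Sham array and was at least 1.94-fold higher in TBI, 3.71-fold with imipramine and 2.18-fold with Prozac, by a bound set on this scale. After normexp background correction its differences in TBI and with Prozac shrank to 0.43 and 0.295 and were no longer called. Among regulators Cr1l, a membrane inhibitor of C3 convertases, rose by 0.74 in TBI, and C4bpb, a chain of C4b-binding protein, fell by 0.64. Of the 8 calls in TBI, those of Fcnb and C5ar1 remained without Sham replicate 1, where Masp1 was gained, and those of C5ar1, Itgam and Itgb2 remained without Sham replicate 2.

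**Figure D4:**
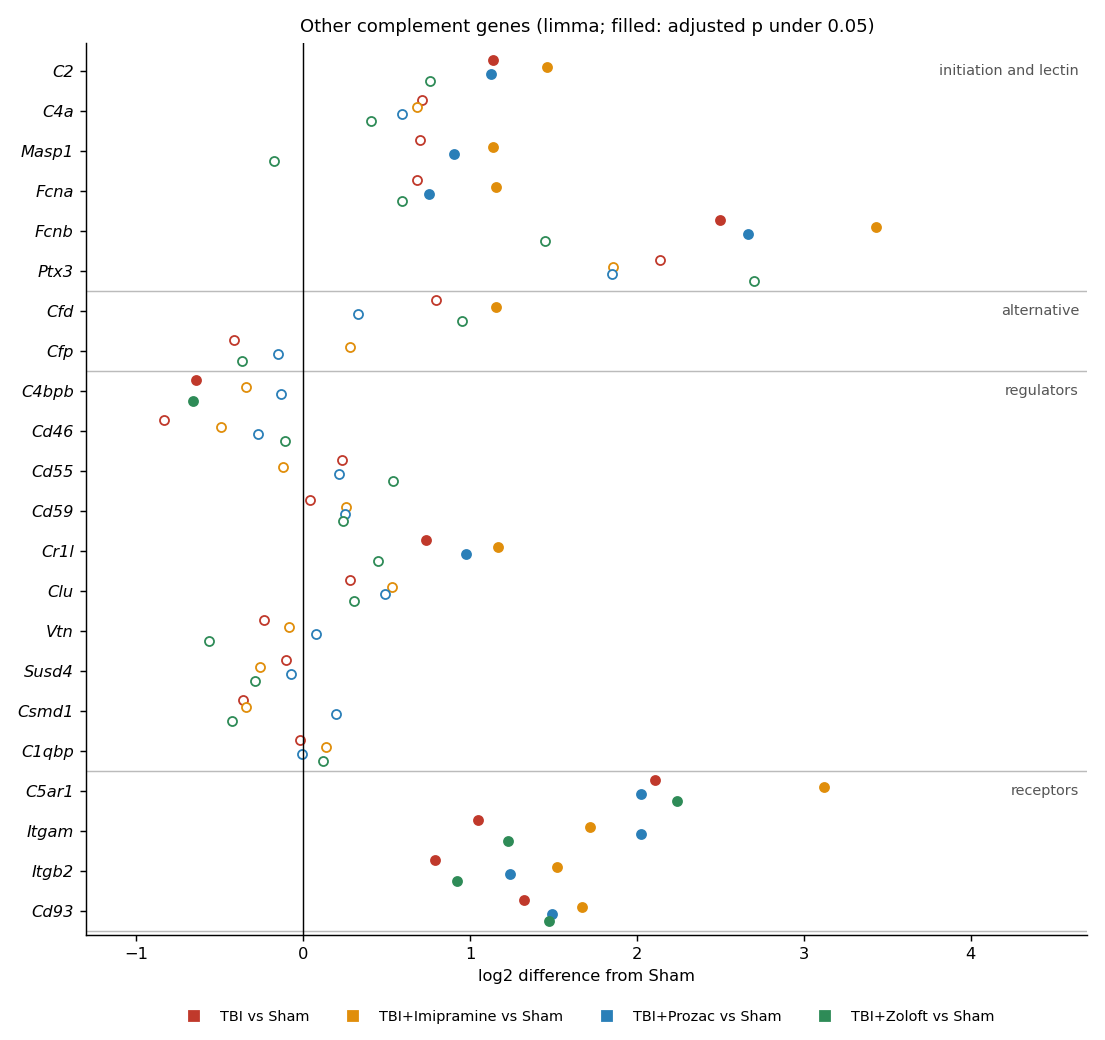
Differences from Sham of 22 of the 23 other complement genes tested, grouped by role, in the 4 injured groups on the log2 scale, with filled points where the limma adjusted p was under 0.05. C5ar1 shows differences between 2.03 and 3.12 in all groups, and C4bpb lies below 0 in all of them.

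Against untreated TBI 2.85%, 0.00577% and 1.38% of all tested probes were called with imipramine, Prozac and Zoloft. In those comparisons 0 of the 23 other complement genes were called, which is near these shares. Between drugs, 3 were higher with imipramine than with Zoloft (Cr1l, Fcnb and Masp1), against 5.29% of all tested probes called. With Prozac 2 were higher than with Zoloft (C4bpb and Masp1), against 3.69%, and 0 differed between imipramine and Prozac, against 0.00577%. Of all probes called against Zoloft, 910 of 917 were higher with imipramine and 625 of 639 with Prozac. The medians of all probes were higher by 0.18 and 0.11. Masp1 encodes a protease of the lectin pathway. It ranged from -3.81 to -3.65 with imipramine, from -4.19 to -3.86 with Prozac and from -5.25 to -4.74 with Zoloft. The Zoloft arrays lay below all imipramine arrays, as for 26.6% of all probes, and below all Prozac arrays, as for 21.2%. The Masp1 difference from Zoloft was 1.31 for imipramine (SE 0.21, limma adjusted p = 0.0129) and 1.08 for Prozac (SE 0.21, limma adjusted p = 0.0238). Under 3 other scalings, namely quantile normalization, the 75th percentile over all probes and the values of the series table, none of these 5 calls remained. Under the same 3 scalings Masp1 was instead called lower with Zoloft than in untreated TBI, where its difference was -0.88 and not called.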

How the data were processed

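RNA of whole rat hippocampus was hybridised to 1-colour Agilent arrays, and the authors deposited scanner tables with a processed signal intensity per spot after background subtraction (Agilent Feature Extraction 11.5.1.1) and flags per spot. The authors also deposited a series table, whose columns have medians of 0.081 to 0.0897 and lie, for at least 99.46% of values, within 5% of a constant linear multiple of the same signal intensity, and miRNA arrays, which were not used here. Groups followed the labels. The members and gene lists were chosen with earlier results of these data known.

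Control and outlier spots were left out, spots of a probe were averaged, and log2 values, computed here from the deposited intensities, were scaled to each array's 75th percentile over probes above background. A probe was tested if, in 1 group or more, over 0.5 of its spots were well above background on each array. All 14 arrays were fitted together with limma 3.58.1 (R 4.3.3), with Benjamini-Hochberg adjustment over 17322 probes and a threshold of 0.05. Probes were named through RefSeq accessions (18643 of 30367 matched). All 9 members, the other genes of the complement list and the 3 genes most correlated with each member were eligible to be named. With several probes of a gene, the probe with the highest mean level represented it. Correlations used SciPy 1.17.1 with 100000 permutations. The fit was tested on simulated data for TBI against Sham over 17251 probes, where changes of 1, 2, 3 and 4 on the log2 scale were recovered in 58%, 88%, 96% and 98% of cases. The number of arrays limits the precision. Nothing in the labels says how rats were randomised or whether RNA was pooled, so p-values measure the spread between these samples. The alternatives covered scaling, background correction, the filter, slide and replicate blocks, the methods' t-test and leaving out each array. The planned normexp correction used median in place of mean spot signals, since the tables used here hold no mean signal. The values of 1 gene of the list of other complement genes are not reported here, though it is included in the list's counts.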

Additional observations from a re-analysis of the deposited data

Results flagged for a closer look

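A difference between imipramine and Zoloft passed the test of the difference itself for 3 other complement genes, against 5.29% of all tested probes. Between Prozac and Zoloft 2 such genes passed, against 3.69%. Masp1 was higher by 1.31 on the log2 scale with imipramine (limma adjusted p = 0.0129) and by 1.08 with Prozac (limma adjusted p = 0.0238) than with Zoloft. Those calls were lost in 8 and 14 of 29 alternative analyses, and the differences ran from 0.65 to 1.47 and from 0.44 to 1.24. Fcnb was higher by 1.99 with imipramine than with Zoloft, where 1 of 3 arrays was above background, so that the size is uncertain. It ran from 0.65 to 2.54 over 28 alternatives, and the call was lost in 11. Cr1l was higher by 0.72 with imipramine than with Zoloft and lost its call in 16 of 29. C4bpb was higher by 0.53 with Prozac than with Zoloft and lost its call in 20 of 29. Infiltrating myeloid marker sums were 1.59 to 2.91 with imipramine, 0.549 to 1.27 with Prozac and 1.35 to 2.39 with Zoloft. Of the 6 tested markers 0 were called between drugs. The part of these markers in the differences above was not tested.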

How the results depend on the processing

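Each of the 9 genes was recomputed under 30 alternatives, 14 of which left out 1 array and 2 of which were chosen after seeing the data. Of 2510 alternative values 2393 kept their side of the threshold, 102 lost a call and 15 gained one. Among the 2393 were 113 that changed sign, with no call in either analysis. The calls of C1s, C1r, C3, Cfb and Serping1 between TBI and Sham were lost under the methods' t-test with Benjamini-Hochberg adjustment and under no other alternative run. That t-test left 0 calls in TBI, 1 with imipramine, 0 with Prozac and 0 with Zoloft against Sham. Unadjusted, it gave 2 between imipramine and Zoloft (C1qb and C3ar1), 3 between Prozac and Zoloft (C1qb, C1s and C1r) and 1 between imipramine and Prozac (C3ar1). Fitting only the groups compared left 3 with Zoloft against Sham. Leaving out 1 array gave 5 to 8 calls in TBI, 6 to 8 with imipramine, 5 to 7 with Prozac and 4 to 8 with Zoloft against Sham (lowest without Sham replicate 2 in TBI and without Sham replicate 1 with Zoloft), 0 to 1 between imipramine and Zoloft (C3ar1, without TBI+Zoloft replicate 1), and 0 in the other comparisons. Where 1 Sham array was left, it was assumed to vary like the other groups. C3ar1 was not tested where probes had to be above background on all arrays, and a fixed slide block could not be fitted for comparisons with Sham.

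Same-numbered arrays did not deviate together, with a mean correlation of -0.013 over 26 pairs and 2 pairs over 0.1, so that the numbers were not taken to pair samples. With the replicate number as a block 7 genes were called in TBI, 7 with imipramine, 6 with Prozac and 6 with Zoloft against Sham, and 0 in the other comparisons.

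The share of all tested probes called against untreated TBI also moved, from 0.0115% to 5.76% with imipramine, from 0% to 0.699% with Prozac and from 0% to 4.76% with Zoloft over the adjusted alternatives. The 23 other complement genes were less stable, with 219 calls lost and 44 gained over 3340 alternative values and 1 reversal: Fcna with Prozac against Sham was 0.75 in the main analysis and -0.088 under normexp, and the cause was not tested. Leaving out 1 array gave 3 to 8 of them called in TBI, 8 to 12 with imipramine, 3 to 9 with Prozac and 0 to 6 with Zoloft against Sham, and the other alternatives 0 to 10, 2 to 13, 0 to 9 and 0 to 6. Between drugs and TBI the counts ran from 0 to 5 (Masp1 was called lower with Zoloft in 8 of 28 alternatives), and between imipramine and Zoloft and between Prozac and Zoloft from 0 to 8 and from 0 to 6.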
